A study of Mus musculus with 8 samples.

Results

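Toll-like receptors are membrane proteins with which cells of the innate immune system, microglia included, recognise microbial lipids, proteins and nucleic acids as well as molecules released by damaged tissue. Receptors at the cell surface bind lipids, lipopeptides and proteins, receptors in the endosome bind RNA and DNA, and they signal through the adaptors MyD88 and TRIF to NF-kB and interferon regulatory factors. RAGE, the product of Ager and itself a receptor for glycated proteins, shares ligands such as HMGB1 and S100 proteins with some of them.

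The genes described here are Tlr1, Tlr2, Tlr3, Tlr4, Tlr5, Tlr6, Tlr7, Tlr8, Tlr9 and Tlr13, a list taken by gene symbol for receptors said to share ligands with RAGE, and not by their values. They are 10 of the 55291 genes in the count table, and all 10 were among the 19470 genes with enough reads to be tested. The RNA-seq libraries are from lumbar cord of 8 male C57BL/6J mice, all carrying the SOD1G93A transgene, a model of amyotrophic lateral sclerosis, and 1 Cx3cr1 Cre/+ allele. Both Ager alleles were floxed (Ager fl/fl) in E1776, E5231, E5248 and E5568, the 4 Ager-deleted mice, and the 4 Cre controls, E5386, E5642, E6578 and E6732, were Ager +/+. Every mouse received tamoxifen, 5 injections of 0.2 µg, at 12 weeks by the labels, slightly earlier than in the study's methods. The labels give an age of 120 days at collection, where the study's text places the sequenced tissue at end-stage. The Cre is a tamoxifen-activated form knocked into Cx3cr1, so both genotypes lack 1 Cx3cr1 allele, and Cx3cr1 is also active in monocytes and other macrophages. The RNA is of whole cord, and fewer cells of a type and less RNA per cell cannot be told apart in it.

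The libraries held 31148047 to 40324897 counts each, and the 10 receptors had between 44 counts (Tlr5 in E5248) and 2133 counts (Tlr3 in E6732). Levels are library-scaled counts after TMM normalization (CPM, the usual unit per 1e6 counts). A count of 3, the floor used here, was at most 0.0963 CPM. Marker lists were summarised per mouse as the mean log2(CPM + 1) of their genes. The microglia list (20 genes, mean levels from 21.2 to 749 CPM) scored 6.33 to 7.07 in Ager-deleted mice and 6.68 to 6.88 in Cre controls. E5248 and E5568 had the lowest microglia scores, 6.33 and 6.53, and E5231 the highest, 7.07. Of its 20 genes 0 passed edgeR's exact test, against 0.0719% of all tested genes, and their median log2 fold change was -0.04. In that test 2 had an unadjusted p under 0.05, against 4.26% of all tested genes. The same 2 were those whose genotypes did not overlap, against 3.88% of all tested genes. They were the homeostatic receptors Gpr34 (22.9 ± 2.56 CPM in Ager-deleted mice, 30.5 ± 1.72 in Cre controls) and P2ry12 (27.9 ± 3.49 and 34.7 ± 1.66, SD, n = 4 each), named after their values were seen. DESeq2 gave Gpr34 an adjusted p of 0.0208, where edgeR's exact test gave 0.0848. All 14 genes of a skeletal muscle list were measured, and that list scored 5.55 in E5386 and 6.01 in E5642 against 0.93 to 1.62 in the other 6 mice. A liver list (7 of 8 genes in the table, 4 tested) scored 6.03 in E6732 and 0.39 to 0.64 elsewhere. These 3 mice are Cre controls, so their values are named where they stand apart from the other controls.

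Ager, the targeted gene, had 0.889, 1.51, 1.02 and 1.34 CPM where it was deleted, in E1776, E5231, E5248 and E5568 in that order. In the Cre controls E5386, E5642, E6578 and E6732 it was at 1.53, 2.22, 2.18 and 2.41 CPM. Each control lay above each Ager-deleted mouse, though E5386 exceeded E5231 by little. Both of these mice had 56 counts, so their order rests on the scaling of the libraries. The log2 fold change of Ager-deleted over Cre control was -0.81 (SE 0.22, 95% interval -1.29 to -0.33), and edgeR's exact test gave a Benjamini-Hochberg adjusted p of 0.252 over all genes. Without E5386 the adjusted p was 0.0442, and over all alternatives it ran from 0.0442 to 1. The counts behind these values were 35 to 99 per mouse, from whole cord, where cells that do not express the Cre keep the gene.

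Per kilobase of exon, the cord held most Tlr2 transcript, followed by Tlr3, Tlr7 and Tlr13, and least Tlr5. Tlr2, which binds lipopeptides, had a mean of 12.3 CPM per kb (7.77 to 15.5 over the 8 mice), and the double-stranded RNA receptor Tlr3 had 9.25 (7.08 to 10.5). Tlr2 exceeded Tlr3 in 7 of 8 mice. The RNA receptors Tlr7 and Tlr13 followed at 7.07 (6.26 to 8.95) and 5.51 (4.5 to 7.28) CPM per kb, and each of the steps from Tlr3 to Tlr7, from Tlr7 to Tlr13 and from Tlr13 to Tlr1 was in the same direction in all 8 mice. Tlr1 and the DNA receptor Tlr9 had 2.50 (1.86 to 3.44) and 2.40 (1.55 to 3.07) CPM per kb. That pair could not be ordered beyond the spread, since Tlr1 was the higher in 6 of 8 mice only. The lipopolysaccharide receptor Tlr4 had 1.17 (0.768 to 1.76) CPM per kb and exceeded Tlr6, at 0.872 (0.687 to 1.06), in 7 of 8 mice. Tlr8 and the flagellin receptor Tlr5 closed the order at 0.584 (0.383 to 0.929) and 0.351 (0.259 to 0.394) CPM per kb, Tlr8 above Tlr5 in all 8 mice.

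All 10 receptors had a lower fitted level in Ager-deleted mice than in Cre controls, but none passed the test and none separated the genotypes. The log2 fold changes ran from -0.54 (Tlr8) to -0.05 (Tlr1), with a median of -0.17 against 0.01 for all tested genes. Of all tested genes 48.0% had a log2 fold change below 0. At an adjusted p of 0.05 edgeR's exact test called 0 of 10 receptors and 0.0719% of all genes, and the quasi-likelihood test called 0 and 0.00514%, while DESeq2 and limma-voom also called 0 receptors. At an unadjusted p of 0.05 the exact test counted 1 of 10, Tlr4, against 4.26% of all genes. In 0 of 10 receptors did all mice of one genotype lie above all of the other, against 3.88% of all genes. The direction was not stable for every receptor. It turned for Tlr1 with the microglia score as a covariate, for Tlr2 and Tlr13 with the skeletal muscle score as a covariate, for both of these without E5386 and E5642, and for Tlr1, Tlr6, Tlr9 or Tlr13 with single mice left out, while under the other scalings all 10 stayed below 0. Without E5568, the Ager-deleted mouse with the second-lowest microglia score, 7 of 10 were below 0.

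**Figure D1:**
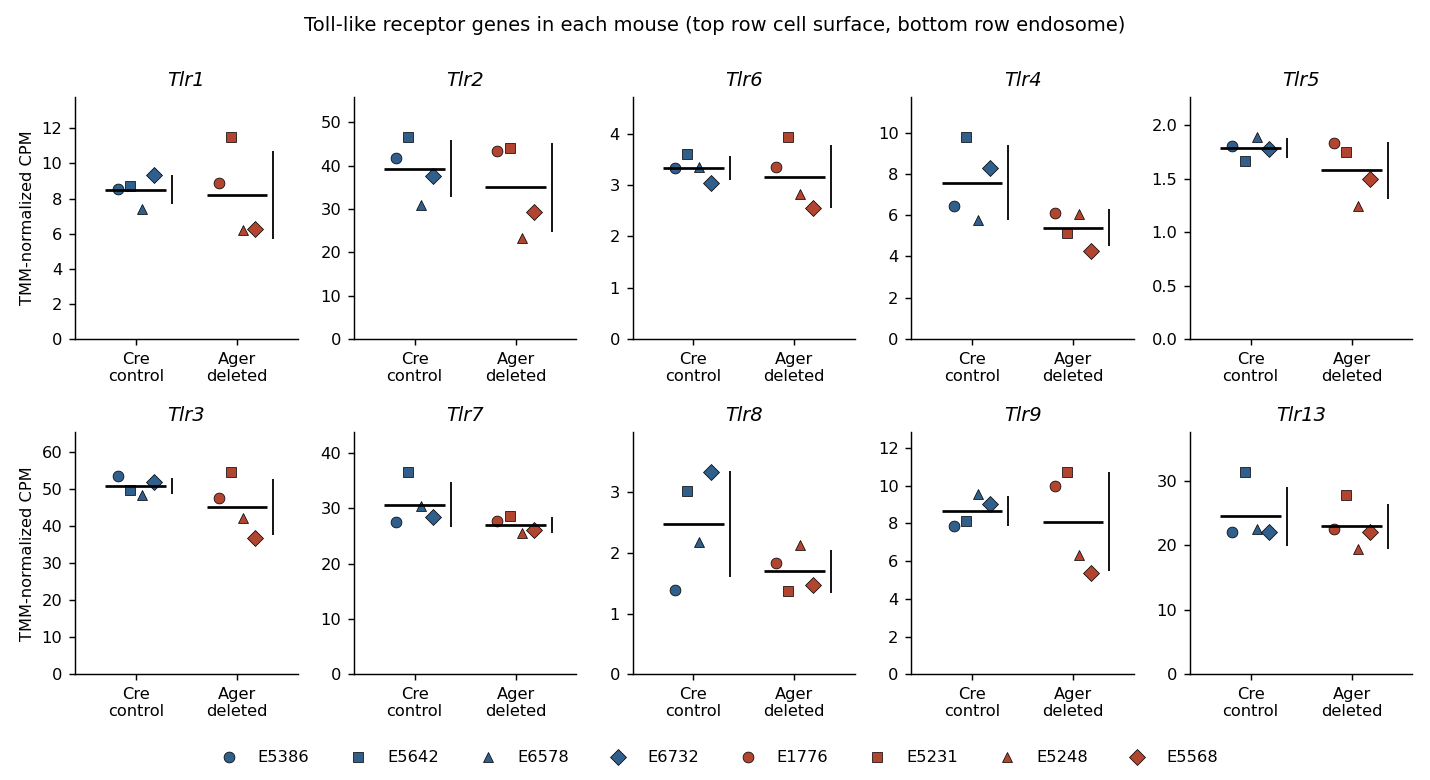
TMM-normalized CPM (vertical axes, from 0) of the 10 receptor genes in each Cre control (blue) and each Ager-deleted mouse (red), with one symbol shape per mouse within a genotype, the mean (horizontal bar) and the SD (vertical bar, n = 4). The genotypes overlap for every gene, and Tlr4 and Tlr8 are highest in the controls E5642 and E6732. All receptors but Tlr4 and Tlr8 split the Ager-deleted mice into E1776 and E5231 above E5248 and E5568.

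Among the cell surface receptors, Tlr2 forms heterodimers with Tlr1 and with Tlr6, which widen the range of lipopeptides bound. Tlr2 (GRCm38 chr3:83836272-83841767, minus strand) had 43.4, 44.0, 23.4 and 29.2 CPM in E1776, E5231, E5248 and E5568. In the Cre controls E5386, E5642, E6578 and E6732 it was at 41.8, 46.6, 31 and 37.7 CPM. E1776 and E5231 lay within the control range and E5248 and E5568 below it, so the SD was wider in Ager-deleted mice (35.0 ± 10.3 CPM) than in controls (39.3 ± 6.58 CPM). The log2 fold change was -0.17 (SE 0.20, 95% interval -0.61 to 0.27).

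Tlr1 (chr5:64924679-64933563, minus strand) showed the same split, at 8.86, 11.5, 6.21 and 6.28 CPM in E1776, E5231, E5248 and E5568, against 8.53, 8.71, 7.41 and 9.36 CPM in the controls. E5231 was above all controls and E5248 and E5568 below all of them, and the log2 fold change was -0.05 (SE 0.19, 95% interval -0.48 to 0.38). Tlr6 (chr5:64952031-64960097, minus strand) was at 3.35, 3.94, 2.82 and 2.56 CPM against 3.34, 3.61, 3.35 and 3.04 CPM, again with E5231 highest and E5248 and E5568 lowest of the 8. Its log2 fold change was -0.07 (SE 0.15, 95% interval -0.42 to 0.27). The adjusted p in edgeR's exact test was 1 for Tlr1, Tlr2 and Tlr6. The proportions within the heterodimer genes did not separate the genotypes either. The level per kb of Tlr2 was 4.19 to 5.94 times that of Tlr1 over the 8 mice (4.75 ± 0.635 in Ager-deleted mice, 5.12 ± 0.687 in controls), and Tlr1 was 2.45 to 3.43 times Tlr6 (2.85 ± 0.341 and 2.86 ± 0.413).

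Tlr1 and Tlr6 lie 18467 bp apart on chromosome 5 with 0 annotated genes between them, and long stretches of their exons are identical, so that reads can match both. Of the 3322 words of 31 bases in Tlr1 transcripts 665 were also found in another gene, 607 of them in Tlr6, and of 3709 in Tlr6 16.6% were shared. The longest run common to both is 229 bases, in a coding exon of each (GRCm38 chr5:64925537-64925765 in Tlr1 and chr5:64953828-64954056 in Tlr6). The first 90 bases of that run are shown because the division of reads between the pair cannot be checked from counts, and the values of Tlr1 and Tlr6 are uncertain to that extent.
Tlr1 and Tlr6: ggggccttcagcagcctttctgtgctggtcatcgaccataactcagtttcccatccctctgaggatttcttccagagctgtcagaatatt

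Tlr4 (chr4:66827584-66930284, plus strand), the receptor for lipopolysaccharide and, like RAGE, a receptor of HMGB1, had the smallest p of the family. In Ager-deleted mice it was at 6.12, 5.15, 6.07 and 4.26 CPM, and in E5386, E5642, E6578 and E6732, the controls, at 6.43, 9.79, 5.79 and 8.29 CPM. Of the 4 controls 3 lay above every Ager-deleted mouse, and the fourth, E6578, lay below E1776 and E5248. The means were 5.40 ± 0.879 and 7.57 ± 1.82 CPM (SD, n = 4 each), a level in Ager-deleted mice of 0.713 of that in controls and a log2 fold change of -0.49 (SE 0.18, 95% interval -0.90 to -0.08). The unadjusted p in edgeR's exact test was 0.022 and the adjusted p 0.995, with adjusted p from 0.378 to 1 over all alternatives. The highest values were in E5642 and E6732, the controls with high skeletal muscle and high liver scores, while E5386, also high in muscle markers, lay at 6.43 CPM. Without E5642 the log2 fold change was -0.35, without E6732 it was -0.44, and without both muscle-high controls it was -0.39. When the quasi-likelihood fit took the muscle score as a covariate, it was -0.36 (unadjusted p = 0.147, adjusted p = 0.998), where that fit without the covariate gave an unadjusted p of 0.0235. Since both muscle-high mice are controls, that score and genotype cannot be fully told apart, and the part of liver RNA was not tested.

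Tlr5 (chr1:182954788-182976044, plus strand), the flagellin receptor, was at 1.83, 1.75, 1.24 and 1.5 CPM in Ager-deleted mice and at 1.81, 1.67, 1.89 and 1.78 CPM in controls. With 44 to 73 counts per mouse it was the least covered receptor, and E5248 and E5568 again had the lowest values. Its log2 fold change was -0.17 (SE 0.16, 95% interval -0.53 to 0.19), and edgeR's exact test gave an adjusted p of 1.

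Among the endosomal receptors, Tlr7 and Tlr8 bind single-stranded RNA and are neighbours on the X chromosome, 40599 bp apart with 0 annotated genes between them. Tlr7 (chrX:167304929-167330558, minus strand) was at 27.7, 28.6, 25.6 and 26.1 CPM in Ager-deleted mice and at 27.5, 36.5, 30.4 and 28.4 CPM in Cre controls. Tlr7 varied little among Ager-deleted mice (27.0 ± 1.41 CPM). Of the controls (30.7 ± 4.07 CPM) E5642 was the highest and E5386 the lowest, and both are muscle-high. The log2 fold change was -0.19 (SE 0.09, 95% interval -0.39 to 0.02), and it was -0.10 without E5642, a muscle-high control, and -0.12 with the muscle score as a covariate.

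Tlr8 (chrX:167242696-167264329, minus strand) had the most negative log2 fold change of the family. It was at 1.83, 1.37, 2.14 and 1.47 CPM in Ager-deleted mice and at 1.39, 3.03, 2.18 and 3.33 CPM in E5386, E5642, E6578 and E6732. Of the 4 controls 3 lay above every Ager-deleted mouse and E5386 among the lowest of all, and E5642 and E6732, the controls high in muscle and in liver markers, again had the highest values. The means were 1.71 ± 0.352 and 2.48 ± 0.874 CPM on 51 to 137 counts per mouse. The log2 fold change was -0.54 (SE 0.27, 95% interval -1.14 to 0.05), and edgeR's exact test gave an unadjusted p of 0.0693 and an adjusted p of 1. Without E5386 it was -0.75 (adjusted p = 0.282) and without E6732 -0.36 (adjusted p = 1), and with the muscle score as a covariate -0.66. The part of liver RNA in these values was not tested. Although adjacent, Tlr7 and Tlr8 did not keep a fixed proportion, since the level per kb of Tlr7 was between 7.48 times (E6732) and 18.3 times (E5231) that of Tlr8.

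Tlr3 (chr8:45395665-45411080, minus strand) was at 47.7, 54.6, 42.2 and 36.9 CPM in Ager-deleted mice and at 53.5, 49.9, 48.6 and 51.9 CPM in controls. Of the Ager-deleted mice 3 lay below all controls, and E5231 lay above all of them. The means were 45.3 ± 7.57 and 51.0 ± 2.17 CPM and the log2 fold change -0.17 (SE 0.11, 95% interval -0.41 to 0.07). Of its exon bases 7.32% (381 bp) also lie under Gm45542, an antisense gene on the other strand. The library kit keeps strand, but the strand setting of the counting is not given in the sources used here, so reads of that stretch may not be told apart.

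Tlr9 (chr9:106222598-106226883, plus strand), which binds unmethylated CpG DNA, was at 9.98, 10.7, 6.32 and 5.38 CPM in Ager-deleted mice and at 7.85, 8.12, 9.56 and 9.02 CPM in controls. All 4 controls fell between the higher pair, E1776 and E5231, and the lower pair, E5248 and E5568, and the log2 fold change was -0.09 (SE 0.21, 95% interval -0.55 to 0.37). Tlr13 (chrX:106143204-106160493, plus strand), which binds bacterial ribosomal RNA, was at 22.5, 27.8, 19.4 and 22.0 CPM against 22.1, 31.3, 22.5 and 22.1 CPM. The muscle-high control E5642 stood above the other 3 controls, while E5386, the other muscle-high control, was at 22.1 CPM. The log2 fold change of -0.10 (SE 0.14, 95% interval -0.41 to 0.21) was 0.04 without E5642 and 0.05 with the muscle score as a covariate. The adjusted p in edgeR's exact test was 1 for Tlr3, Tlr7, Tlr9 and Tlr13. An adjusted p above the threshold does not show equal levels, and the intervals reach to a log2 fold change of -0.39 for Tlr7, the narrowest, and -1.14 for Tlr8, the widest.

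**Figure D2:**
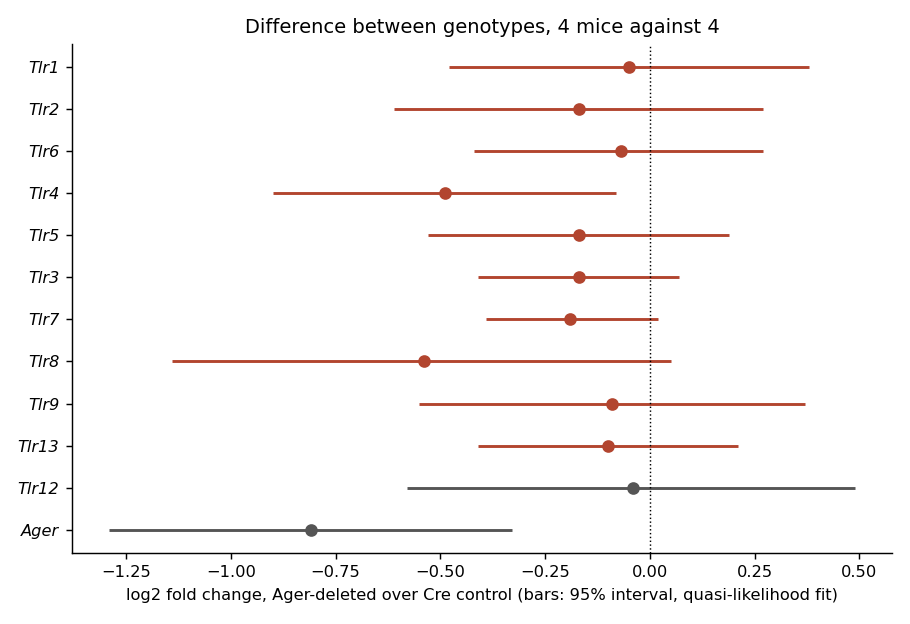
Log2 fold change of Ager-deleted over Cre control (horizontal axis) for the 10 receptors (red) and for Tlr12 and Ager (grey), with 95% intervals from edgeR's quasi-likelihood fit of 4 mice against 4. Of the receptor intervals only that of Tlr4 (-0.90 to -0.08) leaves out 0, before adjustment for the number of genes.

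The family has 2 further mouse members outside the 10. Tlr12 was at 2.26, 2.88, 1.55 and 1.32 CPM in Ager-deleted mice and at 1.89, 2.07, 1.85 and 2.43 CPM in controls, with a log2 fold change of -0.04 (SE 0.24, 95% interval -0.58 to 0.49) and the same higher and lower pairs of Ager-deleted mice as Tlr9. Tlr11 had 1 to 6 counts per mouse and was not tested.

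The split of the Ager-deleted mice into E1776 and E5231 against E5248 and E5568 ran along the microglia marker score, but not along it alone. E1776 and E5231 were also above E5248 and E5568 in the endothelial score (5.03 and 5.24 against 4.81 and 4.6; Cre controls 4.89 to 5.09) and the astrocyte score (9.99 and 9.85 against 9.68 and 9.67; controls 9.78 to 9.98), and below them in the neuron score (8.17 and 8.08 against 8.45 and 8.38; controls 8.14 to 8.42). The part of each of these in the receptor values was not tested. Over the 8 mice, the log2(CPM + 1) of Tlr6 had a Pearson r of 0.88 with the score and a Spearman rho of 0.81. For Tlr1 and Tlr2 r was 0.85 each (rho 0.69 and 0.81), for Tlr5 0.83 (rho 0.50), for Tlr9 0.79 (rho 0.67) and for Tlr3 0.78 (rho 0.76). The median r of the 10 receptors was 0.79, against -0.03 for all tested genes, whose quartiles were -0.40 and 0.39. Tlr13 (r 0.65, rho 0.67) and Tlr7 (r 0.46, rho 0.45) were lower, and Tlr4 (r 0.10, rho 0.12) and Tlr8 (r -0.24, rho -0.52) had the lowest values.

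By exact two-sided permutation over all 40320 pairings, 6 of 10 receptors had an unadjusted p of r under 0.05 (0.00441 for Tlr6, 0.00548 for Tlr2, 0.00823 for Tlr1, 0.0128 for Tlr5, 0.0195 for Tlr9 and 0.0241 for Tlr3), where 15.4% of all genes did. After Benjamini-Hochberg adjustment over all 19470 genes 0 receptors and 0 genes passed, with smallest adjusted permutation p of 0.153 (Tlr6) and 0.069. By Spearman rho the permutation p was 0.0218 for Tlr6 and for Tlr2 (adjusted 0.291 each), 0.0368 for Tlr3 (adjusted 0.348), 0.0694 for Tlr1 (adjusted 0.427), 0.0831 for Tlr9 (adjusted 0.457) and 0.216 for Tlr5 (adjusted 0.604). Without E5248 and E5568, the mice farthest from the median score, r was 0.90 for Tlr6 but 0.60 for Tlr1 and 0.51 for Tlr3. It was 0.41 for Tlr9, 0.40 for Tlr2 and -0.14 for Tlr5, so that of these 6 receptors all but Tlr6 had a lower r. Leaving out the mice with extreme scores narrows the range of the score, which can lower r by itself. The lower values therefore cannot show whether the relation rested on those 2 mice. Without the same mice r was -0.80 for Tlr8 (unadjusted exact permutation p = 0.0236 over 6 mice), -0.63 for Tlr4, -0.12 for Tlr7 and 0.42 for Tlr13. No share of all genes is given for these 6 mice, and the p for Tlr8 is 1 of many alternatives. With each genotype centred on its own mean, r was 0.87 for Tlr6, 0.85 for Tlr1, 0.84 for Tlr2 and Tlr5 and 0.78 for Tlr3 and Tlr9, an alternative chosen after seeing the data. The correlation with total counts lay between -0.45 (Tlr7) and 0.24 (Tlr1). When the quasi-likelihood fit took the microglia score as a covariate, the log2 fold changes of Tlr4 and Tlr8 were -0.50 (adjusted p = 0.378) and -0.64 (adjusted p = 0.393), and those of the other 8 lay between -0.16 and 0.02.

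**Figure D3:**
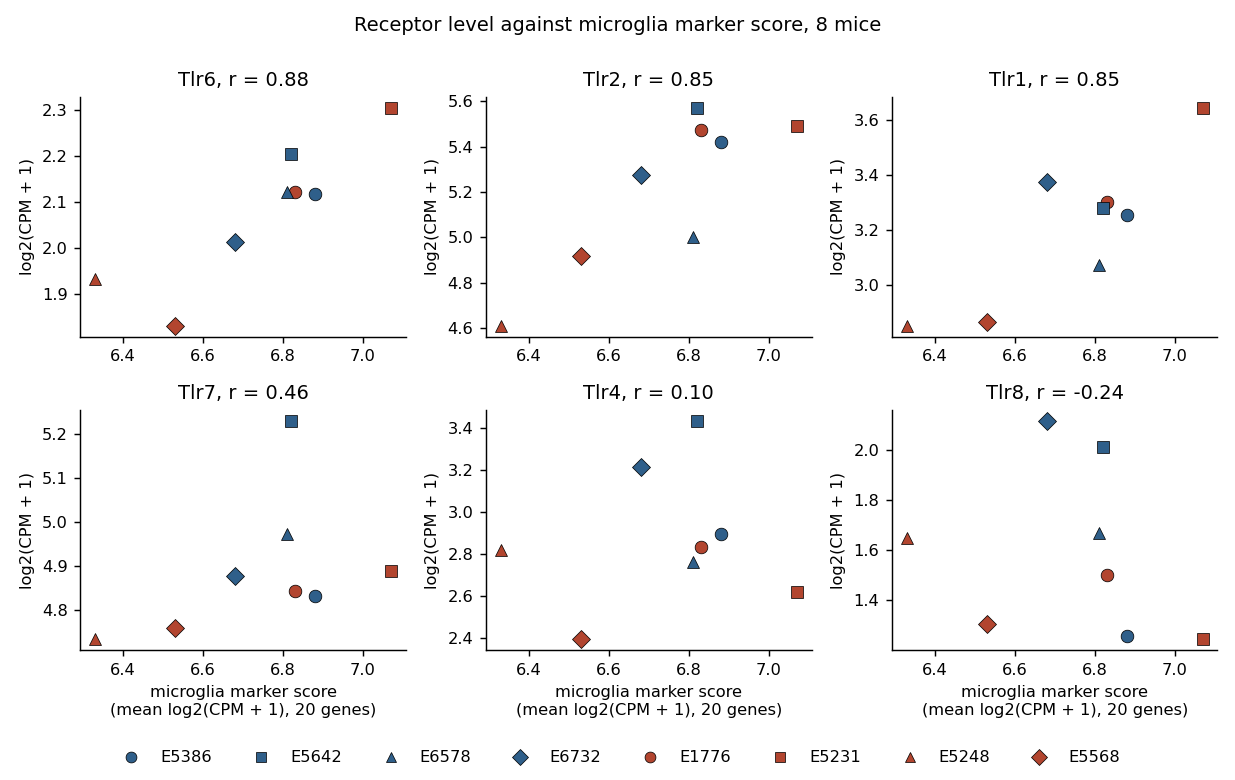
Log2(CPM + 1) of 6 receptors (vertical axes) against the microglia marker score (horizontal axes, mean log2(CPM + 1) of 20 genes) in each Cre control (blue) and Ager-deleted mouse (red), with Pearson r over the 8 mice. Tlr6, Tlr2 and Tlr1 are lowest in E5248 and E5568, the mice with the lowest scores, while Tlr4 and Tlr8 are highest in E5642 and E6732, whose scores of 6.82 and 6.68 lie in the middle of the range.

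Among the receptors themselves, the values of Tlr4 and Tlr8 were alike (r 0.82 over 8 mice), as were those of Tlr7 and Tlr13 (0.83), whereas Tlr8 was unrelated to Tlr1 (0.01) and Tlr2 (0.03). Tlr1, Tlr3, Tlr6 and Tlr9 had an r of 0.83 to 0.85 with each other. Of 16080 tested genes with a mean of at least 1 CPM, the one most like Tlr4 was Lats2 (r 0.987), a Hippo pathway kinase, and the one most like Tlr8 was Pcf11 (0.970), a factor of transcript 3-prime end formation. Tlr1 was most like the chemokine receptor Ackr3 (0.993). Tlr6 was most like the cytokine receptor chain Csf2rb (0.961), Tlr2 like Frrs1 (0.975), and Tlr3 like the endothelial receptor Kdr (0.972). Tlr5, Tlr7 and Tlr9 were most like Angpt4 (0.950), Nek7 (0.986) and Extl3 (0.974). Tlr13 was most like Hdc (0.955), which makes histamine. These r values describe 8 mice and are the highest of 16080 for each receptor.

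Promoters are shown for Tlr1, Tlr9 and Tlr13, whose windows hold the PU.1 motif described next, and for Tlr8, which has no match. RefSeq promoter entries on GRCm38.p6 matched 8 of 10 receptors, all but Tlr4 and Tlr7. The 250 bases before each start were searched on both strands for GAGGAAG, a form of the site of PU.1, the myeloid transcription factor, for the overlapping GGAAGT, and for TGACTCA, the AP-1 site, motifs chosen after the expression values were known. The 8 receptors have 10 promoter entries, since Tlr1 and Tlr6 have more than 1 start. GAGGAAG was found in 3 of the 10 entries (of Tlr1, Tlr9 and Tlr13) and in 10.6% of all 32851 entries. GGAAGT was found in 3 (of Tlr1, Tlr2 and Tlr6; 19.7% of all entries) and TGACTCA in 1 (of Tlr9; 4.46%). Tlr6, Tlr2, Tlr5 and Tlr3, whose r with the microglia score was 0.78 to 0.88, had no GAGGAAG. The overlapping GGAAGT was found in Tlr1, Tlr2 and Tlr6, the receptors with the highest r (0.85, 0.85 and 0.88). In Tlr2 and Tlr6 it lay 30 and 62 bases before the RefSeq start. Both places are inside the gene by the GENCODE annotation, among the bases trimmed as transcribed. The other entry of Tlr1 and the other entry of Tlr6 had no match. GGAAGT was not found in Tlr5, Tlr9 or Tlr3, with r of 0.83, 0.79 and 0.78. Whether the matches go with this correlation was not tested. The sequences are the plus or minus strand as the gene reads, trimmed to end before transcribed bases, with matches in capitals. In Tlr1 GAGGAAG lies 23 bases before the RefSeq start and runs into GGAAGT, in Tlr9 it lies 112 and TGACTCA 58 bases before, and in Tlr13 it lies 83 bases before. The windows are chr5:64933564-64933808 (Tlr1, minus strand), chr9:106222348-106222597 (Tlr9, plus strand), chrX:106143025-106143203 (Tlr13, plus strand) and chrX:167264330-167264579 (Tlr8, minus strand). A match is a description of these letters only.
Tlr1: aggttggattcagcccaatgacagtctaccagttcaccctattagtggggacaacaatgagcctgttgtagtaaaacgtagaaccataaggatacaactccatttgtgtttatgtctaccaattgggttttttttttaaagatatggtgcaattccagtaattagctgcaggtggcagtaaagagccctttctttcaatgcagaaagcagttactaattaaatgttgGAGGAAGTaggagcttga
Tlr9: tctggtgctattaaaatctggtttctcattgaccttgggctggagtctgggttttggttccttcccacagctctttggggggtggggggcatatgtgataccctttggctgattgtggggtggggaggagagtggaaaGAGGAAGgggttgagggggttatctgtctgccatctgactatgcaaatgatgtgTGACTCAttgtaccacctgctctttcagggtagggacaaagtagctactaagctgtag
Tlr13: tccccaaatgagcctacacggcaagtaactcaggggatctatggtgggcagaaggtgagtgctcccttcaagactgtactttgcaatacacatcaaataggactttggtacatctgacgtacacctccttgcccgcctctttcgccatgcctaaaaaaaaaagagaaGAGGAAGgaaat
Tlr8: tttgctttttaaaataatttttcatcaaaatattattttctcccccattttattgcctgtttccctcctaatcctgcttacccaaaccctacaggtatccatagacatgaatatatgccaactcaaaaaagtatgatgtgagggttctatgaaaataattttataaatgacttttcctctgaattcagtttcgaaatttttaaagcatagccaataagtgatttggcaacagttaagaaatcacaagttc

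Around the receptors, 83 genes of the pathway were listed by role and 78 were tested. Of these 0 passed either edgeR test, 45 had a lower and 33 a higher level in Ager-deleted mice, and the median log2 fold change was -0.03, near that of all genes. At an unadjusted p of 0.05 in edgeR's exact test there were 5 of 78, Cd36, Sarm1, Rel, Dusp1 and Ptgs2, against 4.26% of all genes. In 2 the genotypes did not overlap, Ptgs2 and Ikbkg, against 3.88% of all genes. Ikbkg, the regulatory subunit of the IkB kinase, was at 53.0 ± 2.00 CPM in Ager-deleted mice and 56.9 ± 1.74 CPM in controls (log2 fold change -0.10, SE 0.06) and was picked after its values were seen.

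Accessory proteins and chaperones hand ligands to the receptors or bring them to the endosome. Their median log2 fold change was 0.00 over 12 of 12 genes, 6 lower and 6 higher. Cd36, a scavenger receptor that works with Tlr2, was at 3.91, 8.46, 7.82 and 5.63 CPM in Ager-deleted mice and at 25.9, 21.4, 7.64 and 9.95 CPM in E5386, E5642, E6578 and E6732. Its highest values were in the 2 controls with high skeletal muscle scores. The log2 fold change was -1.33 (SE 0.38), and -0.41 with the muscle score as a covariate. As both mice are controls, the muscle score and genotype cannot be fully told apart. edgeR's exact test gave an adjusted p of 0.183. Cd36 passed the threshold only with common and tagwise dispersions (adjusted p = 0.0253), without E6578 (adjusted p = 0.00335) and without E6732 (adjusted p = 0.0314). Cd180, a Toll-like receptor homologue of myeloid and B cells, was at 39.4 ± 13 CPM in Ager-deleted mice and 45.8 ± 2.89 CPM in controls (log2 fold change -0.22, SE 0.19). The genes with the highest level per kb were Lgmn, a protease that processes endosomal receptors (394 ± 71.1 and 392 ± 16.0 CPM), and Hsp90b1, the chaperone of most Toll-like receptors (361 ± 24.5 and 340 ± 8.61 CPM).

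Adaptors and proximal kinases carry the signal from the receptor. Their median log2 fold change was -0.03 over 21 genes, 13 lower and 8 higher. The smallest p was that of Sarm1, an adaptor with a role in axon degeneration, at 23.5 ± 2.66 CPM in Ager-deleted mice and 19.9 ± 0.759 CPM in controls (log2 fold change 0.24, SE 0.09, unadjusted exact test p = 0.0354, adjusted p = 1). Ticam2, the bridging adaptor of Tlr4, was at 4.16 ± 0.632 and 5.22 ± 1.12 CPM (log2 fold change -0.32, SE 0.17). Ube2n and Tab2, which act in ubiquitin signaling below the adaptors, had the highest levels per kb, with log2 fold changes of -0.11 (SE 0.09) and -0.08 (SE 0.07).

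NF-kB and interferon regulatory factors had a median log2 fold change of 0.02 over 16 genes, 5 lower and 11 higher. Rel, an NF-kB subunit, was at 11.2 ± 1.21 CPM in Ager-deleted mice and 13.6 ± 1.22 CPM in controls (log2 fold change -0.28, SE 0.11, unadjusted exact test p = 0.0439, adjusted p = 1). Irf3, which acts below TRIF, was at 33.5 ± 2.16 and 30.7 ± 1.65 CPM (0.13, SE 0.07 on the log2 scale). Nfkbia, the inhibitor that NF-kB itself induces, was at 56.4 ± 7.58 and 55.6 ± 17.2 CPM, and Rela at 48.8 ± 5.21 and 50.7 ± 1.56 CPM. Both had the highest levels per kb of the list and log2 fold changes of 0.02 (SE 0.20) and -0.06 (SE 0.08).

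Negative regulators limit the response. Their median log2 fold change was -0.08 over 12 genes, 9 lower and 3 higher. The phosphatase gene Dusp1 was at 21.7 ± 3.47 CPM in Ager-deleted mice and 26.7 ± 3.15 CPM in controls (log2 fold change -0.30, SE 0.12, unadjusted exact test p = 0.037, adjusted p = 1). Irak3, an inhibitory kinase homologue of macrophages, was at 4.8 ± 0.379 and 5.52 ± 0.930 CPM (log2 fold change -0.20, SE 0.14). Tollip and Cyld, the most abundant per kb, had log2 fold changes of 0.00 (SE 0.06) and -0.05 (SE 0.06).

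Of 16 inducible target genes 11 were tested, with a median log2 fold change of -0.10, 7 lower and 4 higher. Il6, Il10, Il12b, Ifnb1 and Cxcl2 had at most 10, 2, 4, 3 and 9 counts in any mouse and were not tested. Ptgs2, which encodes cyclooxygenase-2, was at 1.30, 1.54, 1.69 and 1.16 CPM in Ager-deleted mice and at 1.94, 2.47, 1.92 and 1.95 CPM in controls. Each control lay above each Ager-deleted mouse on 45 to 80 counts, with a log2 fold change of -0.54 (SE 0.17, 95% interval -0.92 to -0.16), and edgeR's exact test gave p = 0.0111 unadjusted and 0.765 adjusted. Il1b was at 1.35 ± 0.546 and 1.94 ± 0.536 CPM (log2 fold change -0.52, SE 0.30), lowest in E5248. The chemokine genes Ccl3 and Ccl4, the highest per kb, had log2 fold changes of -0.12 (SE 0.13) and 0.02 (SE 0.19).

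RAGE and the ligands it shares with Toll-like receptors had a median log2 fold change of -0.27 over 7 genes, 6 lower and 1 higher. The median and these counts include Ager, the deleted gene, which at -0.81 was the lowest of the list. Hmgb1 had a log2 fold change of -0.04 (SE 0.08) and S100a1 of -0.06 (SE 0.14). For S100a8 and S100a9 it was -0.66 (SE 0.57) and -0.39 (SE 0.61). Over the 8 mice these 2 genes ranged from 6.58 to 68.9 CPM and from 9.55 to 92.4 CPM. S100a4 was at 4.45 ± 1.28 CPM in Ager-deleted mice and 5.38 ± 0.751 CPM in controls (log2 fold change -0.27, SE 0.20). S100b, an astrocyte protein and the highest per kb, was at 647 ± 51.6 and 641 ± 43.6 CPM (log2 fold change 0.01, SE 0.08), and S100a1 at 122 ± 26.3 and 127 ± 12.8 CPM.

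**Figure D4:**
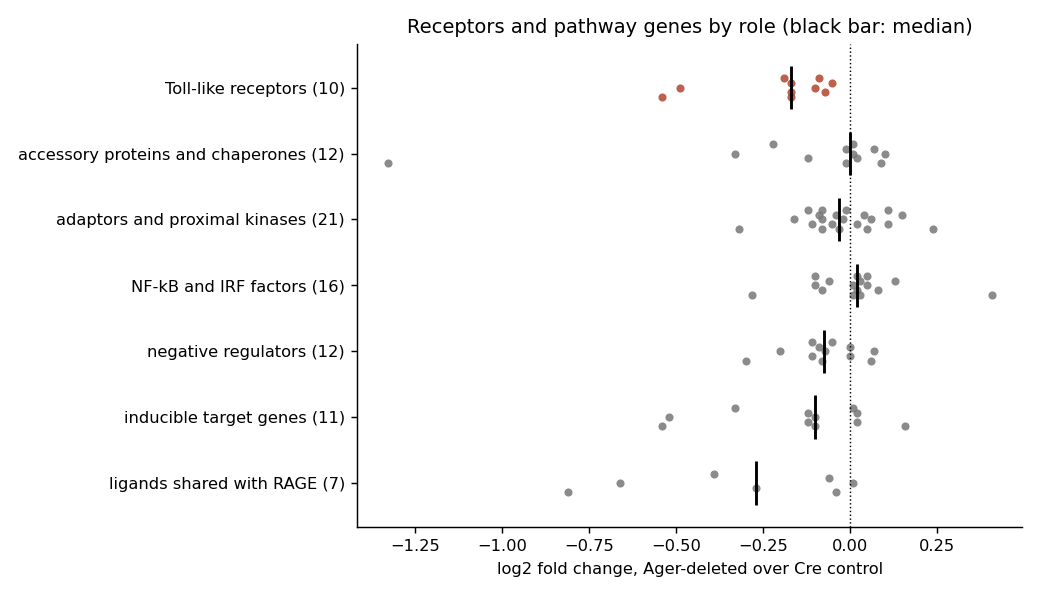
Log2 fold change of Ager-deleted over Cre control (horizontal axis) of each tested gene (points), by role, with the number of genes in brackets and the median as a black bar. The receptors lie between -0.54 and -0.05, while the adaptors and the NF-kB and IRF factors lie on both sides of 0; Cd36 is the accessory gene at -1.33.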

How the data were processed

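RNA of the lumbar spinal cord of 8 mice was analysed, in groups given by the labelled genotype, each named by its ID. The authors trimmed reads (Trimmomatic 0.36), aligned pairs to mm10 with STAR 2.7.3a, summed them per GENCODE M25 gene with featureCounts (Subread 1.6.3) and deposited these raw counts. The authors also deposited log2 values of TMM-normalized CPM for 19470 genes, used only as a check (largest difference 4.78e-06). Labels do not say whether mice shared litters or days.

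Genes were filtered with filterByExpr (minimum count 10), normalized by TMM and tested with the exact test of edgeR 4.0.16 under R 4.3.3, with dispersions from estimateDisp, Benjamini-Hochberg adjustment over all tested genes and a threshold of 0.05. The quasi-likelihood test gave standard errors and 95% intervals and was run beside it, as were DESeq2 1.42.0 and limma-voom (limma 3.58.1). Correlations used log2(CPM + 1) and exact permutation in Python. On simulated data with a log2 fold change of 1.5, the exact test recovered 183 of 191 changed genes. Beside these 183 it made 33 false calls among 19273 genes, a larger share of all its calls than the threshold of 0.05. The receptors' log2 fold changes, -0.54 to -0.05, were smaller, and recovery of changes of that size was not simulated. Floors (3 counts) and count ranges cover counting error only.

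Named genes are all receptors, Ager, Tlr11 and Tlr12, and from each pathway list the 2 smallest exact-test p, the 2 highest levels per kb and any gene past the threshold in either edgeR test. Hmgb1, S100a8 and S100a9 are named as well, so that every listed ligand shared with RAGE is given. For each receptor the 3 most alike genes by Pearson r were found, of which the first is named. The members and lists were chosen with earlier results of these data known. Positions, exon lengths and overlaps are from GENCODE M21 on GRCm38, matched by symbol. The alternatives were other normalizations, filters, dispersions and tests, covariates, and leaving out mice.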

Additional observations from a re-analysis of the deposited data

Results flagged for a closer look

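In a group of 4 mice, a value was singled out when its gap to the nearest other mouse took up more of the group's range than Dixon's 95% critical value. Over 96 groups (35 genes and 13 marker scores in 2 genotypes) 7 values did so, and chance gives about 1 in 20 groups.

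Tlr13 in the Cre control E5642 was at 31.3 CPM, against 22.1 to 22.5 CPM in the other controls, and Ptgs2 in the same mouse was at 2.47 CPM, against 1.92 to 1.95. The border macrophage score was 1.95 in the Ager-deleted mouse E1776 (2.41 to 2.45 in the others) and 1.78 in the control E5386 (2.56 to 2.71 in the others). E5386 also had a Schwann cell score of 2.00, against 5.84 to 6.32 in the other controls, and the lowest Tlr8 value of the controls, 1.39 CPM. The liver score was 6.03 in the control E6732 (0.386 to 0.595 in the others), which had the highest Tlr8 value, 3.33 CPM, and 0.50 in the Ager-deleted mouse E5248 (0.621 to 0.638 in the others). The part of these marker differences in the receptor values was not tested.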

How the results depend on the processing

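No paired analysis was possible because the labels give mouse IDs and no replicate numbers shared between genotypes. No receptor was called under any alternative. Over all genes the exact test called 14, against 25 with DESeq2, 8 with at least 1 CPM in 4 mice, 78 with common and tagwise dispersions, 1 with the quasi-likelihood test (also with the microglia or the muscle score as a covariate), 1 with limma-voom, 67 without E5386 and E5642, and 3 (without E5231) to 98 (without E6578) with single mice left out. Of the pathway genes 0 were called, and 1, Cd36, with common and tagwise dispersions and without E6578 or E6732 (range 0 to 1). Receptors whose genotypes did not overlap numbered 0, and 1 without E5386 and E5642 (Tlr8), and 0 to 1 with single mice left out: Tlr3 without E5231, Tlr8 without E5386, Tlr4 without E6578. In each of these the mouse that overlapped the other genotype was among those left out. No share of all genes is given for these smaller sets, in which genotypes overlap less readily, so the counts are not read as a result. Receptors with a log2 fold change below 0 numbered 7 to 10 with single mice left out. The log2 fold change of Ager ran from -0.94 to -0.69 with single mice left out and was -0.96 without E5386 and E5642. Receptors with an unadjusted permutation p under 0.05 for the microglia score numbered 6, and 2 without the 2 farthest mice (Tlr6, and Tlr8 with r of -0.80), and 3 to 7 with single mice left out. The share of all genes, 15.4%, is given for 8 mice only, so the counts in the smaller sets have no background beside them.

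The sign of the log2 fold change turned for Tlr1 (0.0207 with the microglia score as a covariate, -0.256 to 0.0625 with single mice left out, including 0.0597 without E5568 and 0.0027 without E6732), Tlr2 (0.0233 with the muscle score, 0.0184 without E5386 and E5642), Tlr13 (0.0494 with the muscle score, 0.0323 without E5386 and E5642, -0.203 to 0.0356 with single mice left out, 0.0356 without E5642), Tlr9 (0.0073 without E5248, 0.0599 without E5568) and Tlr6 (-0.193 to 0.0186, the latter without E5568). The sign of r with the microglia score turned without the 2 farthest mice for Tlr4 (-0.63), Tlr5 (-0.14) and Tlr7 (-0.12), for Tlr4 also without E5568 (range -0.158 to 0.366 with single mice left out) and when centred on genotype means (-0.091, added after seeing the data), and for Tlr8 without E5231 (range -0.428 to 0.00387). The cause was not tested. Scalings moved the median of all genes by less than 0.1. Tlr5 and Tlr8, with 44 to 137 counts per mouse, are the receptors most limited by depth.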

Other observations

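Irf7, the interferon regulatory factor that acts below Tlr7 and Tlr9, was named after its values were seen. It had the highest log2 fold change of the pathway genes, 0.41 (SE 0.44, 95% interval -0.57 to 1.38). Its values were 23.6, 57.6, 10.8 and 14.6 CPM in E1776, E5231, E5248 and E5568, and 16.4, 19.1, 26.8 and 18.3 CPM in the Cre controls. The Ager-deleted mouse with the highest Irf7, E5231, also had the highest Tlr1, Tlr3, Tlr6 and Tlr9 and the highest microglia score (7.07). Tlr7 was highest in the control E5642 (36.5 CPM). A relation of Irf7 to the receptors was not tested. For Irf7 the adjusted p in edgeR's exact test was 1.

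The level per kb of Tlr13 was 0.700 to 0.922 of that of Tlr7 over the 8 mice, and the level of Tlr7 was 2.28 to 4.13 times that of Tlr9, with overlapping genotypes for both.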
